A study of Homo sapiens with 6 samples.

Results

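RAB GTPases are small GTP-binding proteins that label the membranes of the secretory and endocytic routes, and their transcripts were examined here in Ewing sarcoma cells depleted of EHD1. The genes were chosen by symbol alone, as every gene of the deposited count table named RAB followed by digits and at most 1 letter and 1 further digit. This rule found 71 of the 60676 genes in the table, 63 of them annotated as protein-coding and 8 as processed pseudogenes. The RNA came from TC71, an established Ewing sarcoma cell line, which had been transduced with a doxycycline (Dox)-inducible lentiviral construct. In the control line (shNTC+Dox) the shRNA had no target, and in the other (shEHD1+Dox) it was directed against EHD1. Dox was given to both lines alike, at 0.5 µg/ml and over 3 days, and each group had 3 libraries, 6 in all. The lines were stable pools of transduced cells, the sources used here do not say which EHD1 shRNA was present, and cells without Dox were not analysed here. Loss of EHD1, other effects of the shRNA and differences between the lines therefore cannot be told apart. The words "after depletion" below name the shEHD1+Dox group and no cause. In the order of their replicate numbers, the control libraries totalled 26528902, 28203023 and 22711235 counts. The EHD1-depleted libraries totalled 28157184, 24150135 and 30582187 counts.

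A RAB protein switches between a GTP-bound form that recruits effectors such as tethers, motors and sorting factors, and a GDP-bound form that is extracted from the membrane by GDP dissociation inhibitors (GDIs). Guanine nucleotide exchange factors load GTP, GTPase-activating proteins end the cycle, and RAB escort proteins present newly made RABs for attachment of the prenyl anchors. Each RAB marks its own compartments. RAB1 and RAB2 act between the endoplasmic reticulum (ER) and the Golgi, RAB5 on early endosomes, RAB4 and RAB11 on recycling endosomes, and RAB7 on late endosomes and lysosomes. EHD1 is a membrane-remodelling ATPase of the endocytic recycling compartment, the RAB11-positive station from which receptors return to the cell surface. The question addressed was how far RAB transcripts differed between the EHD1-depleted line and the control line.

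EHD1 itself stood at 27.1, 28.0 and 26.3 CPM (counts scaled to the size of the library) in the shNTC+Dox libraries and at 7.54, 7.14 and 9.36 CPM in the shEHD1+Dox libraries. The groups were far apart, in the direction the labels state. EHD1 fell by 1.76 on the log2 scale (SE 0.12, adjusted p = 0.000135), to 29.6% of the control mean. The library sizes were scaled by TMM, and adjusted p-values come from edgeR's quasi-likelihood test over 16785 genes with Benjamini-Hochberg adjustment. Where nothing states that the 3 libraries of a group came from separate cultures, these p-values measure the spread between the libraries, which may be technical. In such bulk libraries, fewer cells with a transcript and less transcript per cell cannot be told apart.

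The Ewing sarcoma markers were present in every library, with PRKCB, a protein kinase C gene, the most abundant at 556.8, 549.9 and 508.3 CPM in the controls and 609.0, 593.1 and 595.4 CPM after EHD1 depletion. Summed over the 6 Ewing markers, the level was 1249, 1258 and 1169 CPM in the controls and 1337, 1231 and 1355 CPM after depletion. Markers of leukocytes and endothelium were near 0, whereas some epithelial and fibroblast markers were expressed. The 5 leukocyte markers summed to at most 0.581 CPM in any library, and the 4 endothelial markers to at most 0.105 CPM. The epithelial genes EPCAM and CDH1 did not pass 0.190 CPM, and KRT18, the most abundant of the 5 epithelial markers, lay between 23.8 and 30.7 CPM. Of the 5 fibroblast markers, PDGFRB was the most abundant (65.9 to 111.9 CPM) and DCN fell by 1.01 on the log2 scale (adjusted p = 0.00778). The other 4 did not pass, and the median of the 5 was 0.16. The 2 epithelial markers tested, KRT8 and KRT18, differed by 0.62 and 0.23 (adjusted p = 0.208 and 0.102), and the summed epithelial level was 27.2 to 31.6 CPM in the controls and 34.0 to 40.1 CPM after depletion. The part of these markers in the RAB results was not tested. CD99 rose by 0.33 and STEAP1 fell by 0.43 on that scale, each past the same test.

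One control library stood apart from the others. Comparing counts gene by gene, shNTC+Dox replicates 1 and 2 differed by a chi-square of 5.64 per degree of freedom, whereas replicate 3 differed from them by 26.4 and 27.9. Between shEHD1+Dox libraries this value was at most 18.7. Replicate 3 of shNTC+Dox was the lowest of the 3 controls for 24 of the 53 RAB genes tested, where it was the lowest for 41.6% of all genes, and the highest for 22. Counts of calls over the whole family and over all RAB regulators are therefore given with and without it.

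Of the 71 RAB genes, 53 had at least 10 counts in at least 3 libraries and were tested, 51 of them protein-coding. Most moved little. Of the 53, 46 changed by less than 0.5 in either direction on the log2 scale, as did 13188 of all 16785 genes tested. The median size of the change was 0.17, beside 0.23 over all genes tested. Past an adjusted p of 0.05, 5 RAB genes were higher in shEHD1+Dox (RAB31, RAB39B, RAB11A, RAB2A and RAB7A) and 3 were lower (RAB40B, RAB39A and RAB4A). The 5 rises make 9.43% of the RAB genes tested, against 8.59% of all genes tested, and the 3 falls make 5.66%, against 8.75% of all genes, so both shares were near the background. Only RAB40B also passed a 2-fold change (1.89% of the RAB genes against 2.82% of all genes). Without shNTC+Dox replicate 3, 9 RAB genes were higher, when 11.4% of all genes were, and 5 were lower, when 10.5% of all genes were. The added rises were RAB11B, RAB14, RAB3B and RAB18, and the added falls RAB3A and RAB42. Leaving out each of the 6 libraries in turn gave 1 to 9 higher and 2 to 5 lower. Over all genes the same settings gave 3.76% to 11.4% higher and 4.15% to 10.5% lower, so the number of calls moved in general.

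The direction of change leaned upwards. The log2 fold change was above 0 for 35 of the 53 and below 0 for 18, with a median of 0.11, where the median over all genes was 0.00. In 16 RAB genes every shEHD1+Dox library was above every shNTC+Dox library, and in 6 every one was below. The shares of all genes tested with such separated groups were 19.9% and 19.4%. Added together, the 71 genes gave 2431, 2500 and 2415 CPM in the controls and 2589, 2634 and 2593 CPM after depletion. The summed RAB level was thus higher in each EHD1-depleted library than in any control library, with means of 2449 ± 45.1 and 2606 ± 25.1 CPM (SD, n = 3 each).

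**Figure D1:**
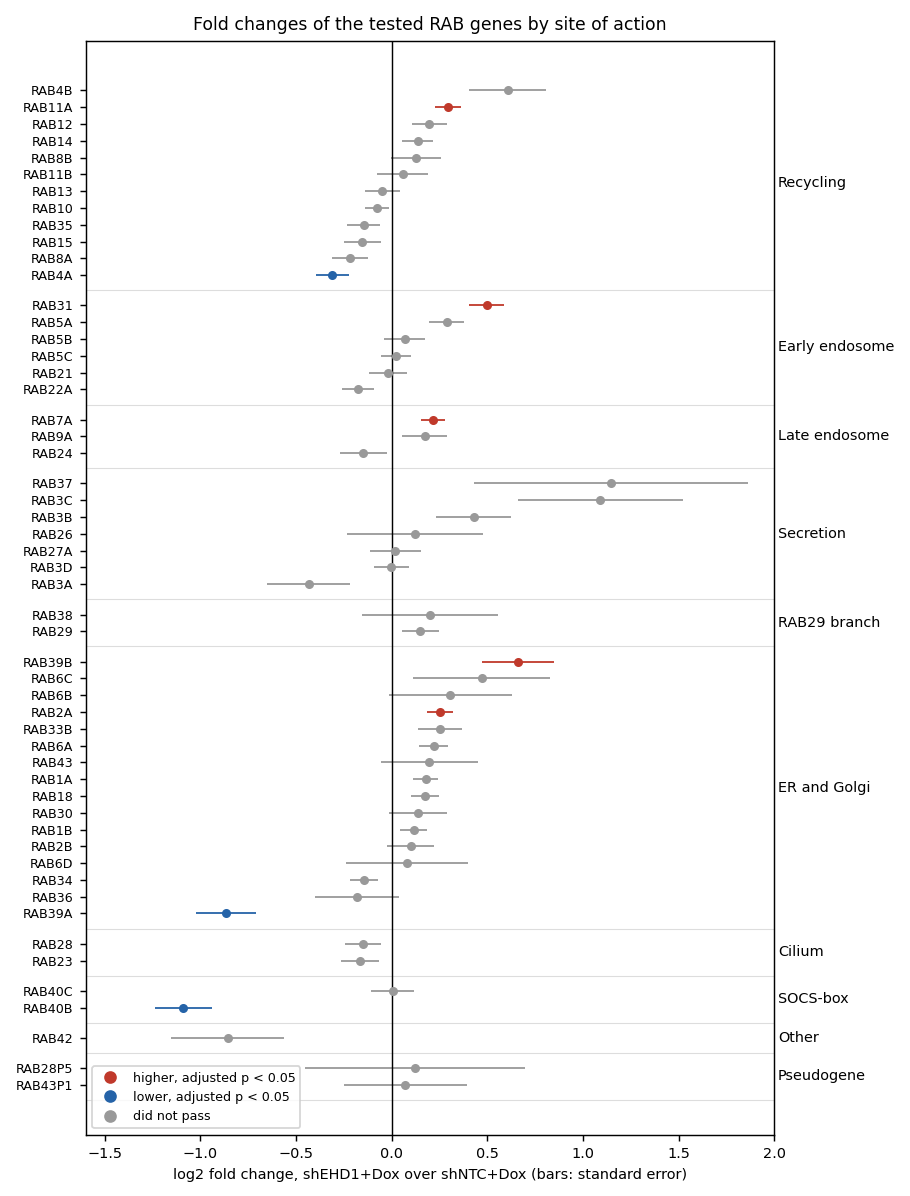
Log2 fold change (x axis, shEHD1+Dox over shNTC+Dox) of the 53 tested RAB genes, grouped by the compartment under which each was listed. Points are fitted values and bars standard errors. The 5 red points are the genes higher and the 3 blue points the genes lower at an adjusted p under 0.05. Of the 53, 46 lie within 0.5 of 0, as do 13188 of all 16785 genes tested.

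Of the called genes, 3 held in all 12 alternative analyses: RAB40B and RAB39A among the falls and RAB31 among the rises. Their promoters are shown because their calls were kept under each of these settings. Each is the RefSeq window (GRCh38.p14) from 250 bases before to 50 bases after the start of the gene. They lie at chr17:82698649-82698948 on the minus strand (RAB40B), chr11:107928198-107928497 on the plus strand (RAB39A) and chr18:9708051-9708350 on the plus strand (RAB31). Capitals mark matches on either strand to GGGCGG (the SP1 box), CCAAT (the CCAAT box) and CACGTG (the E-box).
RAB40B: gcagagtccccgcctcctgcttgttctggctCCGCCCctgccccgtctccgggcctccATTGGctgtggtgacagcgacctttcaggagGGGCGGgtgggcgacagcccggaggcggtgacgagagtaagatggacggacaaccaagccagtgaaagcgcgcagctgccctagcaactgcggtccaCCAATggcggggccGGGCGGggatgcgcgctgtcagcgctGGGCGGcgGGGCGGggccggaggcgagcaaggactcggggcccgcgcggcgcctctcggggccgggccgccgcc
RAB39A: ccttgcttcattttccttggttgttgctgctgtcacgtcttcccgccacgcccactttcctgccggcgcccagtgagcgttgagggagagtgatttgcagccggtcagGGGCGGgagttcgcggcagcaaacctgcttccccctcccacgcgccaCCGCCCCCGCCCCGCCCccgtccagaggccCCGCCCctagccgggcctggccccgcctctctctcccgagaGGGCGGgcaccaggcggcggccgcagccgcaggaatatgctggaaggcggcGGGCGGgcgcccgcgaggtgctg
RAB31: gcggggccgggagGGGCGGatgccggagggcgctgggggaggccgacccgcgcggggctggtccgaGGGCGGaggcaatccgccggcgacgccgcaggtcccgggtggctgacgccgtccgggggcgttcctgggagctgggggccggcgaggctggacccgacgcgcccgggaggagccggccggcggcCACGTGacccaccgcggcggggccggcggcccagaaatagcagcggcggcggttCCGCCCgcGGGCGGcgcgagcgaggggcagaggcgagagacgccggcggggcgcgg

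All 3 windows were rich in G and C, at 73.7% for RAB40B, 72.0% for RAB39A and 82.7% for RAB31. The SP1 box matched 5 times in RAB40B, 7 times in RAB39A and 4 times in RAB31, including overlapping matches, and was present in 45.0% of all 35116 promoter windows of this length and in 47 of the 60 windows of tested RAB genes. RAB40B held 2 CCAAT boxes, a motif found in 34.6% of all windows. RAB31 held 1 E-box, found in 7.26% of all windows. Other motifs were searched on both strands and had no match in these 3 windows. They were TATAAA (the TATA box, in 11.5% of all windows), CCGGAAG (an ETS site, 10.3%) and GGAAGGAA (a GGAA repeat, 3.67%). The others were GCGCATGCG (an NRF1 site, 1.92%), TGACGTCA (the cAMP response element, 1.85%) and TTTGGCGC (an E2F site, 0.652%). These matches describe the letters in the windows and say nothing of binding.

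The control cells expressed most of the family, at very unequal levels. Levels of different RAB genes were compared only per length, as TPM from the union of a gene's exons. TPM are counts divided by length and scaled to the same total in each library. The order of levels was taken from the shNTC+Dox libraries alone, whereas shares among paralogs are given for both groups. RAB1B, which drives traffic from the ER to the Golgi, was the highest, at 261.7, 266.4 and 264.2 TPM in the 3 control libraries. Its paralog RAB1A followed at 212.6, 212.1 and 210.1 TPM. RAB10, which carries cargo to the cell surface, came next at 197.8, 199.8 and 197.8 TPM. These 3 genes held 30.0% of all RAB transcripts in control cells, and the ranges of neighbours in that order did not overlap. RAB13 (106 ± 11.5 TPM, mean ± SD, n = 3), known from epithelial junctions, and RAB14 (106 ± 8.36 TPM), a RAB of the Golgi and early endosomes, did not differ beyond their spread. With the length of the longest transcript in place of the union of exons, RAB1A (209.3 TPM) came before RAB1B (198.0 TPM), so the order of these paralogs depended on the length used. By that length RAB7A (150.4 TPM, beside 91.0 TPM by the union of exons) also came before RAB10 (148.9 TPM).

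Of the 71 genes, 37 reached 10 TPM in control cells and 48 reached 1 TPM. RABs of the recycling and surface delivery group made up 36.7% of RAB transcripts per length, those of the ER and Golgi 35.3%, those of early endosomes 12.5%, and those of late endosomes and lysosomes 6.64%. By the longest transcript, the ER and Golgi group came slightly before the recycling and surface delivery group, so their order depended on the length used. It can also depend on the list, in which each RAB was put under 1 group only. RAB14 (106 TPM), of the Golgi and early endosomes, was listed under recycling and surface delivery. RABs of regulated secretion took 3.08%, with RAB3D the highest at 33.8 ± 2.86 TPM. RAB27A, the RAB of melanosomes and exosome release, stood at 3.88 ± 0.43 TPM, or at 6.90 TPM by the longest transcript.

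**Figure D2:**
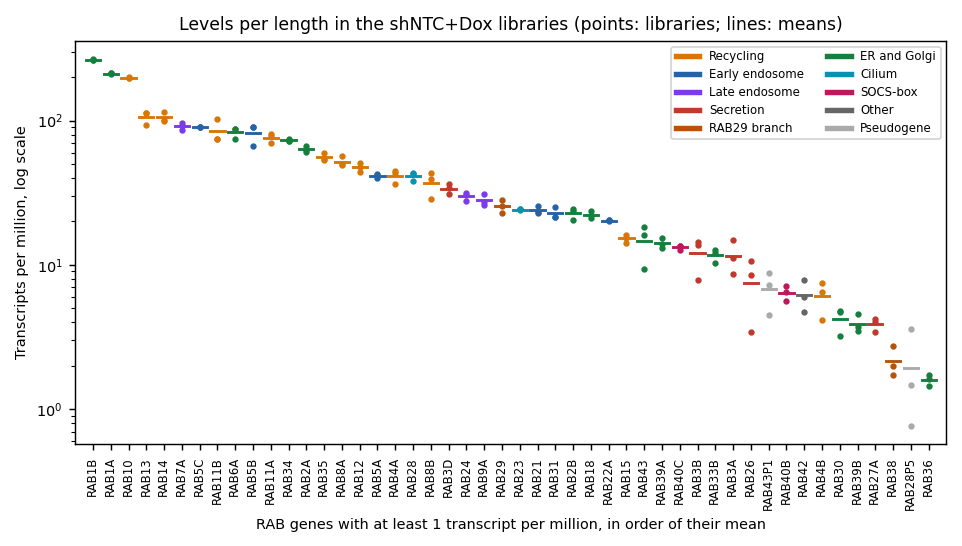
Level per length (y axis, TPM, log scale) of the 48 RAB genes with at least 1 TPM in the 3 shNTC+Dox libraries, in order of their mean; points are libraries, lines are means and colors the group of each RAB. RAB1B, RAB1A and RAB10 lead, near 200 TPM and above, and the level falls more than 100-fold along the order.

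Among the 12 tested RABs of recycling and polarized surface delivery, 1 rose, 1 fell and 10 did not pass the test. Over all genes tested 8.59% were higher and 8.75% lower, the background for this and the other compartment groups. RAB11A, the RAB of the recycling endosome on which EHD1 acts, stood at 116, 121 and 107 CPM in shNTC+Dox and at 143, 140 and 139 CPM in shEHD1+Dox. All EHD1-depleted libraries were above all controls. RAB11A, which lies on chromosome 15 (65726054 to 65891989, plus strand, GRCh38), rose 1.23-fold (log2 0.29, SE 0.07, adjusted p = 0.0204). Its paralog RAB11B stood at 44.9, 45.8 and 63.9 CPM in the controls and at 56.2, 49.6 and 54.9 CPM after depletion. The high control value was that of replicate 3, the groups overlapped, and the log2 difference was 0.06 (SE 0.13, adjusted p = 0.806). Without that library RAB11B was higher in shEHD1+Dox by 0.24 (adjusted p = 0.0426).

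RAB4A, which returns cargo from early endosomes by the short route, was at 38.4, 38.0 and 32.5 CPM in shNTC+Dox and at 28.2, 30.0 and 29.7 CPM in shEHD1+Dox. The groups did not overlap. RAB4A (chromosome 1, 229271062 to 229305894, plus strand) fell by 0.31 on the log2 scale (SE 0.09, adjusted p = 0.0411). It shares 181 exon bases with RAB4A-AS1 on the other strand, and the library kit does not keep strand, so reads there cannot be told apart. RAB11A and RAB4A, RABs of the long and short recycling routes, thus moved in opposite directions, although neither call held throughout. Their paralogs RAB11B and RAB4B did not pass (log2 0.06 and, by its own counts, 0.61). RAB11A lost its call without shNTC+Dox replicate 1 or shEHD1+Dox replicate 1 or 3 (adjusted p up to 0.0832). RAB4A lost its call without any single library other than shNTC+Dox replicate 3 (adjusted p up to 0.151).

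The RABs that deliver cargo to the surface did not pass the test. RAB8A, which acts in exocytosis and at the cilium, was at 62.8, 65.1 and 76.0 CPM in the controls and 56.1, 63.3 and 55.9 CPM after depletion (log2 -0.22, SE 0.09, adjusted p = 0.141). RAB10 was at 187, 194 and 195 CPM in the controls and 185, 188 and 173 CPM after depletion (log2 -0.08, SE 0.06, adjusted p = 0.438). In both genes the groups overlapped. RAB14 was at 122, 127 and 146 CPM and then at 144, 150 and 139 CPM (log2 0.14, SE 0.08, adjusted p = 0.279), again with overlapping groups. Without shNTC+Dox replicate 3, which was its highest control, RAB14 was higher by 0.22 (adjusted p = 0.0301). RAB35, a RAB of fast endocytic recycling, differed by -0.15 (SE 0.08, adjusted p = 0.267) and RAB13 by -0.05 (SE 0.09, adjusted p = 0.752).

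Of the 6 tested RABs of early endosomes, 1 rose, none fell and 5 did not pass. RAB31, a RAB5 relative of the trans-Golgi network and endosomes, was at 30.7, 31.3 and 37.4 CPM in shNTC+Dox and at 45.7, 48.8 and 45.7 CPM in shEHD1+Dox. The highest control library was well below the lowest EHD1-depleted one. RAB31 (chromosome 18, 9708275 to 9862551, plus strand) rose 1.41-fold (log2 0.50, SE 0.09, adjusted p = 0.00813). RAB22A, its closest paralog, was at 48.1, 50.1 and 51.2 CPM and then at 42.9, 48.7 and 40.6 CPM, with overlapping groups (log2 -0.18, adjusted p = 0.184). As a share of the transcripts per length of the pair, RAB31 made up 51.9%, 51.4% and 55.3% in the controls and 64.3%, 62.9% and 65.5% after depletion. The means were 52.9% ± 2.12 and 64.2% ± 1.32 (SD, n = 3 each), a difference for which the exact two-sided permutation test gave p = 0.1, the smallest that 3 against 3 libraries allow. RAB31 had already been called in these same libraries, so the share is not a separate test. The share also depends on the length used. By the longest transcript the control means were 23.3 TPM for RAB31 and 15.9 TPM for RAB22A, beside 22.8 and 20.3 TPM by the union of exons.

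RAB5A, the RAB that drives fusion of early endosomes, was at 41.2, 42.8 and 40.5 CPM in shNTC+Dox and 52.1, 55.6 and 44.3 CPM in shEHD1+Dox. Every EHD1-depleted library was above the controls, but they were spread more widely, and the log2 difference of 0.29 (SE 0.09) missed the threshold (adjusted p = 0.064). DESeq2's Wald test gave RAB5A an adjusted p of 0.0441, and without shEHD1+Dox replicate 3 it was 0.0367. RAB5B and RAB5C, which share its role, differed by 0.07 and 0.02 on the log2 scale with overlapping groups (adjusted p = 0.700 and 0.872), and the lowest RAB5B value was again that of shNTC+Dox replicate 3 (116 CPM, beside 153 and 156 CPM).

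Late endosomes, lysosomes and autophagy were represented by 3 tested genes, of which 1 rose. RAB7A, the RAB of late endosomes and of fusion with lysosomes, was at 179, 175 and 166 CPM in the controls and at 204, 199 and 201 CPM after EHD1 depletion. The groups were separate, and the shEHD1+Dox libraries lay within a few CPM of each other. RAB7A (chromosome 3, 128693669 to 128825942, plus strand) rose 1.16-fold (log2 0.22, SE 0.06, adjusted p = 0.0419), a call lost without any single library other than shNTC+Dox replicate 3 (adjusted p up to 0.143). RAB9A, which acts in transport from late endosomes to the trans-Golgi network, and RAB24, a RAB of autophagy, differed by 0.17 and -0.15 on that scale (adjusted p = 0.357 and 0.450).

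**Figure D3:**
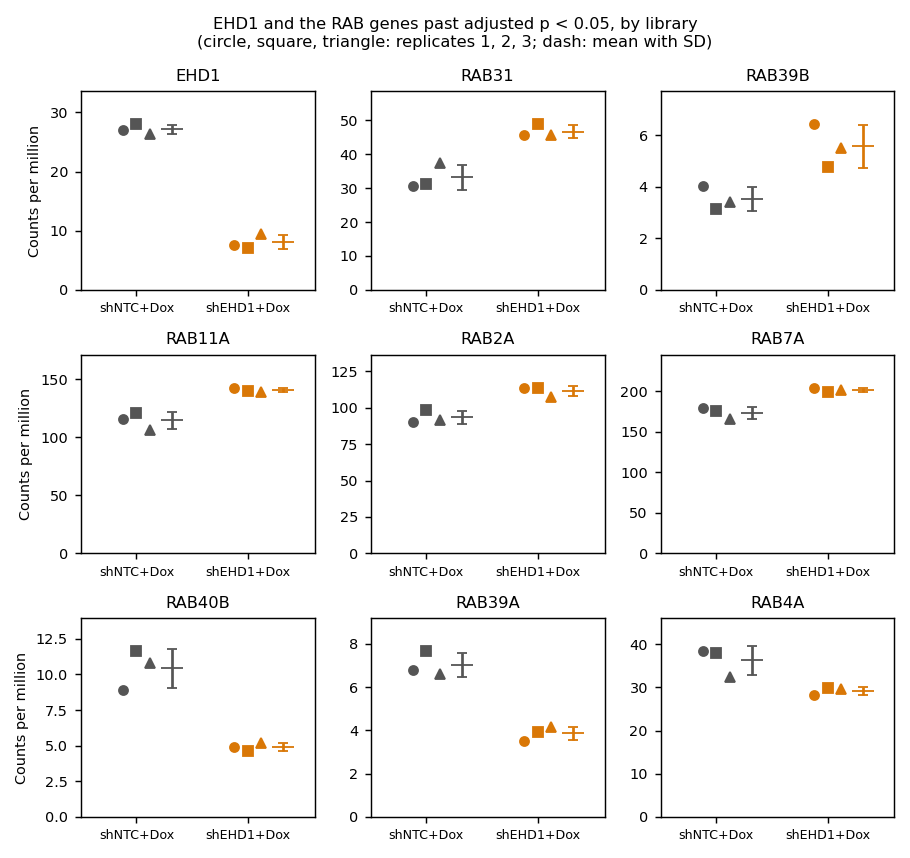
Normalized CPM (y axis, from 0) of EHD1 and of the 8 RAB genes past an adjusted p of 0.05 in each library; circles, squares and triangles are replicates 1, 2 and 3, and dashes with bars are means and SD (n = 3). In all 9 panels the shNTC+Dox and shEHD1+Dox libraries do not overlap, and the gap is wide for EHD1, RAB40B and RAB39A and narrow for RAB7A and RAB4A.

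Of the 16 tested RABs listed under the ER and Golgi, 2 rose (RAB2A and RAB39B), 1 fell (RAB39A) and 13 did not pass. Over all genes 8.59% rose and 8.75% fell. RAB39A, a RAB also studied in autophagy, and RAB39B were placed in this group by the list used here and are described below. RAB2A, which acts between the Golgi and the ER and lies on chromosome 8, was at 90.5, 98.5 and 91.5 CPM in shNTC+Dox and at 113, 114 and 107 CPM in shEHD1+Dox. The groups were separate, and RAB2A rose 1.19-fold (log2 0.25, SE 0.07, adjusted p = 0.0318), a call lost without shNTC+Dox replicate 1 or any 1 of the shEHD1+Dox libraries (adjusted p up to 0.116). RAB1A was at 183, 187 and 188 CPM and then at 201, 224 and 204 CPM. RAB1B was at 132, 138 and 139 CPM and then at 140, 144 and 159 CPM. Both had separate groups without passing the test (log2 0.18 and 0.11, adjusted p = 0.0999 and 0.293). RAB6A, the RAB of transport within and from the Golgi, showed the same separation (log2 0.22, adjusted p = 0.0752, and 0.0474 by the Wald test of DESeq2). Its low-level relatives RAB6C and RAB6D are retrogenes with nearly the same sequence, so the split of reads among the 3 is uncertain.

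Among the paralog groups listed, RAB39A and RAB39B were the pair in which 1 member rose and the other fell past the test. RAB39A, a RAB studied in phagosomes and autophagy, was at 6.79, 7.65 and 6.62 CPM in shNTC+Dox and at 3.51, 3.92 and 4.13 CPM in shEHD1+Dox. RAB39B, a brain-enriched RAB whose loss causes X-linked intellectual disability and parkinsonism, was at 4.02, 3.14 and 3.40 CPM and then at 6.42, 4.78 and 5.52 CPM. Neither gene's groups overlapped. RAB39A (chromosome 11, 107928448 to 107963482, plus strand) fell by 0.87 on the log2 scale (SE 0.16, adjusted p = 0.00714). RAB39B (chromosome X, 155258235 to 155264491, minus strand) rose by 0.66 (SE 0.19, adjusted p = 0.0418), a call that was lost without any single library other than shNTC+Dox replicate 3, with adjusted p-values up to 0.164. Both were low, with 96 to 212 counts in a library for RAB39A and 76 to 183 for RAB39B.

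On the scale of transcripts per length, RAB39B made up 24.6%, 18.5% and 22.1% of the pair in the controls and 50.3%, 40.2% and 42.5% after depletion. The 2 sets of shares were far apart, with means of 21.7% ± 3.10 and 44.3% ± 5.27 (SD, n = 3 each, exact two-sided permutation p = 0.1, the smallest possible). The pair was picked because its members moved in opposite directions in these same libraries, so this separation and its p were fixed by that choice. Neither gene shares exon bases with another gene in the annotation.

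The RAB40 proteins carry a SOCS box, which joins them to Cullin 5 ubiquitin ligases, and 2 of the 3 listed members were tested. RAB40B, known for its part in the secretion of matrix metalloproteinases, was at 8.92, 11.6 and 10.8 CPM in shNTC+Dox and at 4.88, 4.65 and 5.16 CPM in shEHD1+Dox. The lowest control library was well above the highest EHD1-depleted one. RAB40B (chromosome 17, 82654973 to 82698698, minus strand) fell by 1.09 on the log2 scale (SE 0.15, adjusted p = 0.00225), to 0.47 of the control level. RAB40C was at 14.8, 14.1 and 15.3 CPM and then at 16.1, 13.1 and 14.9 CPM, with overlapping groups and a log2 difference of 0.00 (SE 0.11, adjusted p = 0.986). Among the transcripts per length of RAB40A, RAB40B and RAB40C, the share of RAB40B was 31.8% ± 3.70 in the controls and 18.2% ± 1.24 after depletion (SD, n = 3 each, exact two-sided permutation p = 0.1). As RAB40B had already been called in these same libraries, its share is not a separate test.

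None of the 7 tested RABs of regulated secretion passed the test. RAB27A was at 12.4, 10.2 and 12.3 CPM in the controls and at 12.7, 12.3 and 10.4 CPM after depletion (log2 0.02, SE 0.13, adjusted p = 0.938). RAB3B, a RAB of secretory vesicles, was at 48.0, 46.9 and 27.1 CPM and then at 54.0, 54.6 and 56.1 CPM. Replicate 3 of shNTC+Dox was far below the others here (607 counts against 1264 and 1301), and the log2 difference of 0.43 (SE 0.20, adjusted p = 0.179) became 0.21 (adjusted p = 0.0375) without it. RAB3A, its paralog, also passed only without that library, in the other direction (log2 -0.60, adjusted p = 0.0482, beside -0.43 and 0.202 with it). Without shNTC+Dox replicate 2 the RAB3A difference shrank to -0.21 (adjusted p = 0.545). RAB37 and RAB3C, also of this group, had the highest log2 differences of the family (1.15, SE 0.72, and 1.09, SE 0.43), with separate groups but at most 30 and 25 counts in a library, and did not pass (adjusted p = 0.309 and 0.117). RAB37 had 16, 15 and 0 counts in the controls and 24, 20 and 30 after depletion. The 0 was that of shNTC+Dox replicate 3, so the value of 1.15 depended on that library, and its rank without it was not tested. RAB23 and RAB28, RABs of the primary cilium, differed by -0.17 and -0.15 on the log2 scale (adjusted p = 0.280 and 0.304). RAB29 and RAB38, of the branch that serves lysosome-related organelles, differed by 0.15 and 0.20 (adjusted p = 0.322 and 0.737). RAB42, a little studied member, was at 4.71, 3.64 and 2.91 CPM and then at 2.63, 1.31 and 2.26 CPM, with separate groups and a log2 difference of -0.86 (SE 0.30) that did not pass (adjusted p = 0.0795). RAB42 passed without shNTC+Dox replicate 3 (log2 -1.01, adjusted p = 0.032) and by the Wald test of DESeq2 (adjusted p = 0.0492).

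The 18 members that were not tested had at most 15 counts in any library. Of these, 7 had no count at all (RAB19, RAB32, RAB44 and the pseudogenes RAB28P1 to RAB28P4), where a count of 0 allows up to 3 counts per library. RAB25 and RAB17, RABs of epithelial cells, had at most 2 and 5 counts, and RAB27B, the paralog of RAB27A, at most 12. RAB7B, RAB9B and RAB33A were likewise too low to test, whereas their paralogs RAB7A, RAB9A and RAB33B were tested.

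Not every count belonged clearly to its gene. Of the 53 tested genes, 9 share exon bases with another gene on the same strand and 19 more share them on the other strand only, whereas 25 share none. RAB4B and RAB43 were affected most. RAB4B, the paralog of RAB4A, was at 6.64, 7.83 and 4.38 CPM in shNTC+Dox and at 9.86, 9.10 and 9.81 CPM in shEHD1+Dox (log2 0.61, SE 0.20, adjusted p = 0.0716). It passed by the Wald test of DESeq2 (adjusted p = 0.0334) and without shNTC+Dox replicate 2 (adjusted p = 0.0422). Its readthrough gene RAB4B-EGLN2, which shares its exons, had 663, 533 and 390 counts in the controls and 333, 4 and 0 after depletion. With the readthrough genes added, the log2 difference of RAB4B was -0.99 (SE 0.34, adjusted p = 0.101). The sum also holds reads from the EGLN2 exons of the readthrough gene, which were not separated from the shared ones.

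RAB43, a RAB of the Golgi, traded counts with its readthrough gene within groups, which RAB4B did not. It had 627, 596 and 281 counts in the controls and 561, 457 and 870 after depletion, while the readthrough gene ISY1-RAB43 had 0, 0 and 232 in the controls and 371, 326 and 0 after depletion. Each low value of RAB43 fell in a library where ISY1-RAB43 was counted. Alone, RAB43 differed by 0.20 (SE 0.25, adjusted p = 0.638). The sum of RAB43 and ISY1-RAB43 was higher in every shEHD1+Dox library and rose by 0.44 (SE 0.09, adjusted p = 0.0134), but it also holds reads from the ISY1 exons of the readthrough gene, so it is not a value of RAB43 alone. The 8 called RAB genes share no exon bases with another gene on the same strand. RAB4B, RAB43 and the other RAB genes named here that neither passed the test nor mark a compartment or a high level were picked after their values were seen.

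**Figure D4:**
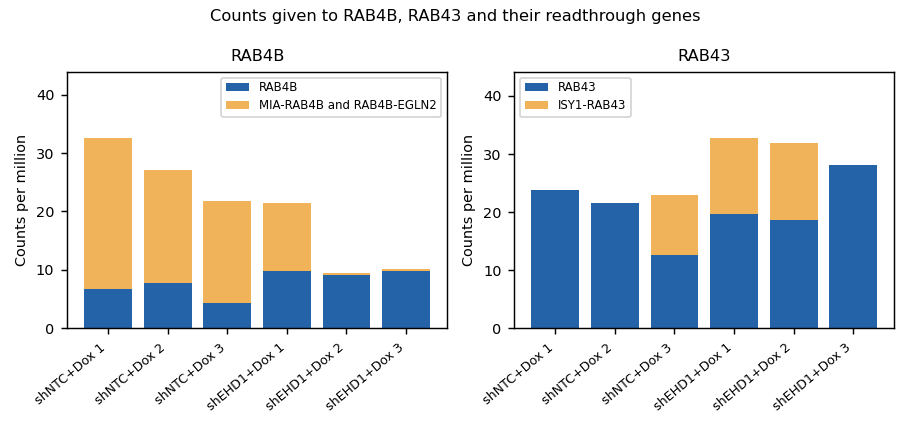
Stacked CPM (y axis, from 0) given to RAB4B (left) and RAB43 (right) and to the readthrough genes that share their exons, by library. The readthrough part is large in all 3 shNTC+Dox libraries and nearly missing in shEHD1+Dox replicates 2 and 3 for RAB4B, and is present in 3 of the 6 libraries for RAB43.

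The proteins that load, unload and read RABs were counted in the same way. Lists drawn up from general knowledge held 192 genes, of which 191 had a row and 178 were tested. Of these, 25 were higher (14.0%, against 8.59% of all genes) and 16 were lower (8.99%, against 8.75%), with a median log2 change of 0.05. When shEHD1+Dox replicate 1 or 3 was left out, the rises numbered 12 and 14, while those over all genes came to 3.76% and 3.90% of the genes tested. Without shNTC+Dox replicate 3, 26 regulators were higher, when 11.4% of all genes were, and 23 were lower, when 10.5% of all genes were. Among the 15 escort, prenylation and GDI genes, 2 rose and 2 fell (13.3% each). CHML, a RAB escort protein, was at 153, 158 and 151 CPM in shNTC+Dox and at 64.1, 94.1 and 65.7 CPM in shEHD1+Dox. The groups were far apart, and CHML fell by 1.04 on the log2 scale (SE 0.14, adjusted p = 0.00243), although it shares 488 exon bases with OPN3. CHM, the other escort protein, differed by 0.15 (adjusted p = 0.153), and GDI2, a GDP dissociation inhibitor, by 0.13 (adjusted p = 0.235). RABIF, a chaperone of exocytic RABs, fell by 0.50 (adjusted p = 0.0142), a call lost without shEHD1+Dox replicate 1 or 3 (adjusted p = 0.0653 and 0.0589). YIPF2 and YIPF5, Golgi membrane proteins that bind RABs, rose by 0.89 and 0.35 (adjusted p = 0.00147 and 0.0094).

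Of the 49 exchange factors tested, 8 rose (16.3%, against 8.59% of all genes) and 6 fell (12.2%, against 8.75%). RIN2 and RIN3, both exchange factors of the RAB5 branch, moved in opposite directions. RIN2 was at 10.5, 12.1 and 11.2 CPM in the controls and at 20.9, 18.7 and 21.5 CPM after depletion. RIN3, which also acts on RAB31, was at 15.5, 14.5 and 17.9 CPM and then at 7.65, 8.41 and 7.10 CPM. In both genes the groups were separate, with log2 changes of 0.86 (SE 0.11, adjusted p = 0.00171) for RIN2 and -1.05 (SE 0.13, adjusted p = 0.00144) for RIN3. TRAPPC6A, a subunit of the TRAPP complexes, rose by 0.88 (adjusted p = 0.00474), and DENND5A, an exchange factor described for RAB39, rose by 0.65 (adjusted p = 0.00225). RAB3IP, the exchange factor of RAB8 also called Rabin8, fell by 0.60 (adjusted p = 0.00196).

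Of the 39 GTPase-activating proteins tested, 5 rose (12.8%, against 8.59% of all genes) and 3 fell (7.69%, against 8.75%). TBC1D4 (AS160), which acts on RAB8A, RAB10 and RAB14 in surface delivery of the glucose transporter GLUT4, was at 92.3, 89.9 and 112 CPM in shNTC+Dox and at 58.8, 69.0 and 64.2 CPM in shEHD1+Dox. With separate groups, it fell by 0.62 on the log2 scale (SE 0.10, adjusted p = 0.00486). TBC1D9 fell by 0.79 (adjusted p = 0.00259) and SGSM2 by 0.37 (adjusted p = 0.0436). The SGSM2 call was lost without shEHD1+Dox replicate 1 or 2 (adjusted p = 0.159 and 0.129) and was kept without shEHD1+Dox replicate 3 (adjusted p = 0.034). TBC1D12, TBC1D23 and TBC1D8 rose by 0.45, 0.36 and 0.35 (adjusted p = 0.045, 0.0102 and 0.00986), and the TBC1D12 call was lost without shNTC+Dox or shEHD1+Dox replicate 1, shNTC+Dox replicate 2 or shEHD1+Dox replicate 3 (adjusted p up to 0.163). TBC1D23 is known as a tether between endosome-derived vesicles and the golgins of the trans-Golgi network.

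Of the 69 effectors tested, 10 rose (14.5%, against 8.59% of all genes) and 4 fell (5.80%, against 8.75%). EXOC5, a subunit of the exocyst that tethers RAB-bearing vesicles to the plasma membrane, was at 108, 109 and 120 CPM in shNTC+Dox and at 36.0, 42.1 and 38.0 CPM in shEHD1+Dox. The groups were far apart, and EXOC5 fell by 1.54 on the log2 scale (SE 0.08, adjusted p = 4.38e-05). MYO5A, the myosin Va motor of RAB11 and RAB27 vesicles, was at 39.1, 36.8 and 27.5 CPM and then at 63.7, 71.1 and 65.8 CPM. Here too the groups were separate, with a rise of 0.95 (SE 0.12, adjusted p = 0.00194). GOLGA2 (GM130), a cis-Golgi tether, rose by 0.68 (adjusted p = 0.00264) and EXPH5, an effector of RAB27, by 0.62 (adjusted p = 0.028). The EXPH5 call was lost without shNTC+Dox replicate 1 or any 1 of the shEHD1+Dox libraries (adjusted p up to 0.0999). BICDL1, an adaptor between RAB6 vesicles and dynein, fell by 1.14 (adjusted p = 0.0256) from about 2 CPM. Its call was lost without shNTC+Dox replicate 1 or 2 or shEHD1+Dox replicate 1 or 3 (adjusted p up to 0.0969). GOLGA1, a golgin of the trans-Golgi network, fell by 0.41 (adjusted p = 0.00573).

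The RAB11 family interacting proteins, which link RAB11 to motors and to EHD1, did not pass the test. RAB11FIP2 was at 55.6, 57.1 and 61.1 CPM in the controls and at 68.0, 80.2 and 65.8 CPM after depletion (log2 0.30, SE 0.09, adjusted p = 0.0513). RAB11FIP1 and RAB11FIP5 also had separate groups (log2 0.21 and 0.24, adjusted p = 0.112 and 0.167), and RAB11FIP3 and RAB11FIP4 had overlapping ones (log2 -0.06 and 0.07). Of the 6 tested RAB-like genes outside the symbol pattern, RABL6 fell by 0.42 (adjusted p = 0.0113, and 0.0535 without shEHD1+Dox replicate 1) and the other 5 did not pass. Of the regulators named here that passed the test, CHML, RAB3IP, GOLGA1 and RABL6 share exon bases with another gene on the same strand, and YIPF2, RIN2, TBC1D8 and SGSM2 on the other strand. Of those that did not pass, GDI2, RAB11FIP1, RAB11FIP2, RAB11FIP4 and RAB11FIP5 share exon bases with another gene too.

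**Figure D5:**
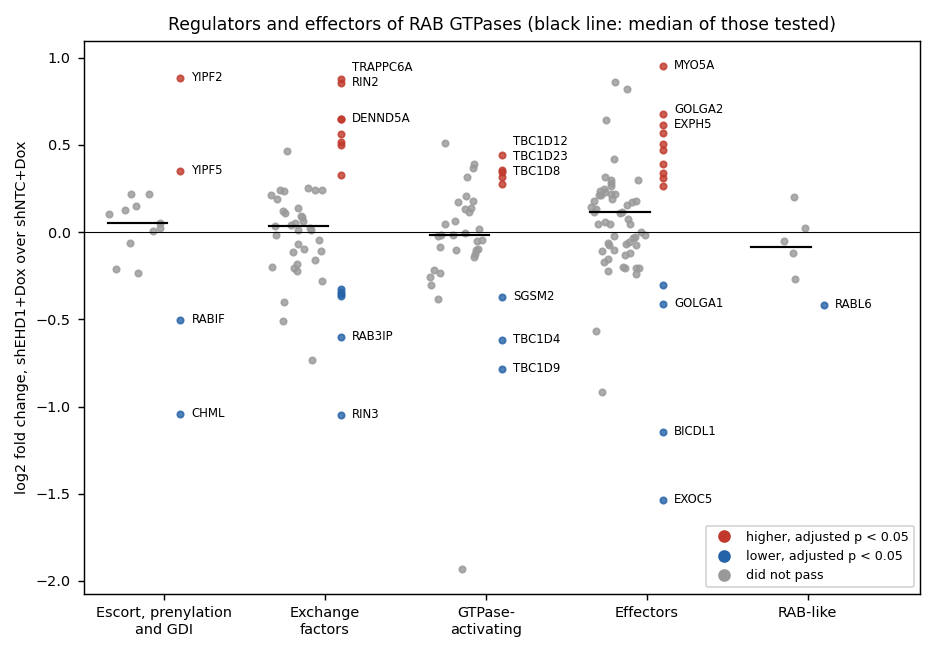
Log2 fold change (y axis, shEHD1+Dox over shNTC+Dox) of the tested genes in each list of RAB regulators and effectors; grey points did not pass, red points were higher and blue points lower at an adjusted p under 0.05, and black lines are the medians of each list. The lowest called value is that of EXOC5, at -1.54, and the highest that of MYO5A, at 0.95, while the medians of all 5 lists lie between -0.09 and 0.11.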

How the data were processed

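RNA-seq was carried out on 6 TC71 libraries. The authors deposited raw counts, 1 whole number per gene and library. The study's methods name hisat2 and StringTie with Ensembl annotation on hg38, whereas the submitters' processing notes list STAR 2.7.3a and DESeq2, so the source of the counts is uncertain, and how reads shared between genes were assigned is not given in the sources used here. The library kit does not keep strand.

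TMM scaling was followed by the quasi-likelihood test of edgeR 4.0.16 (robust, R 4.3.3) with Benjamini-Hochberg adjustment. It covered the 16785 genes that reached 10 counts in 3 or more libraries. A check on counts simulated from the fit's own spread was run, which cannot show that the model fits these libraries. Group differences in single values were tested by exact permutation (two-sided), with 0.1 the lowest p possible. Exon lengths, coordinates and overlaps came from GENCODE release 44 on GRCh38, in which 60357 of 60676 identifiers were found, and promoters from RefSeq (GRCh38.p14), which held windows for 50 of the 71 RAB genes. RIN3 and TRAPPC14, listed as AL159141.1 and MAP11, were matched by identifier, and MICALCL had no row.

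The RAB genes, the lists and the naming rule were chosen with earlier results of these data known. Named were EHD1, RABs with an adjusted p under 0.05, 10 RABs that mark compartments, the 5 highest per length and, per regulator list, up to 3 rises and 3 falls with a mean of at least 1 CPM. Of the genes so named, 1 exchange factor is not reported here.

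The alternatives tried were size factors from DESeq2, its Wald test (version 1.42.0), a block for the replicate number, omission of single libraries, longest transcripts for length, and either no filter or a minimum of 10 counts in all libraries. Summing RAB genes with genes that share their exons, and the longest transcript for paralog shares, were added after the data were seen. Paralog shares by the longest transcript are not given here. A count of 0 was read as up to 3 counts, which covers counting error only.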

Additional observations from a re-analysis of the deposited data

How the results depend on the processing

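RAB40B, RAB39A and RAB31 kept their calls in all 12 alternatives, and the other 5 called RAB genes lost theirs without at least 1 library; with no filter on low counts RAB39B and RAB4A lost theirs too (adjusted p = 0.0567 and 0.0721). Of the named regulators, RABIF, TBC1D12, SGSM2, EXPH5, BICDL1 and RABL6 lost theirs without at least 1 library, TBC1D12 and SGSM2 also with no filter, and TBC1D12, SGSM2 and EXPH5 with the block. The rises numbered 5, with 8 by DESeq2's Wald test (10.5% of all genes), and 1 to 9 when single libraries were left out. The falls numbered 3, with 4 by the Wald test (11.1% of all genes) and 2 to 5 over single libraries, and the 2-fold changes 1, with 1 to 2. For regulators and effectors the 25 rises became 12 to 26 over single libraries. The replicate number did not pair the libraries (correlations of same-numbered deviations 0.072, -0.059 and -0.045), and as a replicate block it left 1 RAB rise and 15 regulator rises, with 5.21% of all genes higher and 5.31% lower, and kept RAB31, RAB39A and RAB40B. By the longest transcript, levels moved from 264.1 to 198.0 TPM for RAB1B, 211.6 to 209.3 for RAB1A, 198.5 to 148.9 for RAB10 and 105.5 to 87.3 for RAB14, and from 91.0 to 150.4 for RAB7A and 3.88 to 6.90 for RAB27A. RAB4B reversed from 0.61 to -0.99 when summed with its readthrough genes. Among genes that had not passed, small log2 values changed sign over single libraries. They ran from -0.068 to 0.10 for RAB27A, from -0.035 to 0.24 for RAB11B, from -0.13 to 0.0084 for RAB13 and from -0.031 to 0.37 for RAB43. Others kept their sign but moved by over 1.5 times, from -0.28 to -0.13 for RAB8A, from -0.19 to -0.088 for RAB35, from -0.099 to -0.043 for RAB10, from 0.059 to 0.15 for RAB1B and from 0.083 to 0.22 for RAB14. In the same way RAB3A ran from -0.60 to -0.21 and RAB3B from 0.21 to 0.56. The cause of these changes was not tested. DESeq2's size factors moved the median of all genes by -0.003. The filter on low counts kept 18 members, with at most 15 counts in any library, out of the test.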
